A study of Mus musculus with 40 samples.

Results

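A set of 10 genes of neutrophil recruitment was followed in a mouse model of lung squamous carcinoma: the chemokines Cxcl1, Cxcl2, Cxcl3, Cxcl5 and Ppbp, their receptor Cxcr2, the calprotectin subunits S100a8 and S100a9, and the inflammatory genes Il1b and Lcn2. They are 10 of the 37310 genes in the deposited table. The genes were selected by name with their levels by dysplasia grade, sample type and strain in view. Their levels and differences in the 25 samples that passed quality control are therefore a description, and the p-values below are those of a fit across all tested genes and are not independent support. RNA came from laser capture microdissected (LCM) lung tissue and from sections of whole lung of female SWR/J mice (labelled SWJ) and A/J mice. Dysplasia was induced with N-nitrosotris-(2-chloroethyl)urea (NTCU), a carcinogen painted on the skin, and the normal samples came from animals given the solvent acetone (0 µmol NTCU). No transgene or targeted allele is given for either strain. The 25 samples comprised 7 normal samples (3 LCM and 4 whole lung, 4 SWR/J and 3 A/J), 5 with mild dysplasia (3 LCM and 2 whole lung, all 5 from SWR/J mice given 15 µmol NTCU) and 13 high-grade samples (7 LCM and 6 whole lung, 8 SWR/J and 5 A/J, 14 to 50 µmol). The high-grade group held 9 samples with moderate to severe dysplasia, 2 with severe dysplasia, 1 carcinoma in situ (CIS) and 1 squamous cell carcinoma (SCC) tumor. Mild dysplasia was sampled in a single strain. Moderate to severe dysplasia followed 14, 25 or 30 µmol, severe dysplasia 50 µmol, and CIS and SCC 20 µmol, so no dose was shared between grades other than CIS and SCC, and dose and grade cannot be told apart.

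The CXC chemokines with a glutamate-leucine-arginine motif attract neutrophils through the receptor Cxcr2, which neutrophils carry on their surface. In mice Cxcl1, Cxcl2 and Cxcl3 are made by epithelium, stroma and macrophages during inflammation, Cxcl5 is made by lung epithelium, and Ppbp, known as platelet basic protein, is best known from platelets. S100a8 and S100a9 pair to form calprotectin, a metal-binding protein that neutrophils carry in large amounts and that stressed squamous epithelium also makes. Il1b encodes interleukin 1 beta, a cytokine that raises chemokine transcription through NF-kB, and Lcn2 encodes lipocalin 2, an iron-scavenging protein of neutrophil granules and of inflamed airway epithelium.

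The 5 chemokine genes lie together on the plus strand of chromosome 5 (mm9), from Cxcl5 at chr5:91188325-91190651 over Ppbp at chr5:91197544-91199086, Cxcl3 at chr5:91215129-91217112 and Cxcl1 at chr5:91320267-91322141 to Cxcl2 at chr5:91332897-91334935. S100a8 (chr3:90472993-90473956, plus strand) and S100a9 (chr3:90496554-90499643, minus strand) are neighbours on chromosome 3. Il1b (chr2:129190306-129196875) and Lcn2 (chr2:32240153-32243317) are on the minus strand of chromosome 2, and Cxcr2 (chr1:74200563-74207812) is on the plus strand of chromosome 1. The 250 bases before the annotated start of each gene were read from the NCBIM37 genome, the assembly behind mm9, and searched for a kB motif (GGGA, any 4 bases, then CC), a C/EBP motif (TTGCNNAA) and an AP-1 motif (TGANTCA) on both strands, and for TATAAA on the gene's strand. A kB match was present before 5 of the 10 genes and before 18.7% of the 22375 promoters of protein-coding genes. The string GGGAATTTCC, picked after its matches were seen, lay before Cxcl1, Cxcl2, Cxcl3 and Cxcl5 and before 0.103% of all promoters (23 of 22375). At each of these sites the kB motif, though not the string, also matched on the minus strand, shifted by 1 base. The string ended 58, 60, 66 and 20 bases before the start of these 4 genes in that order. The 4 promoters are printed because they share this string and because the levels of the 4 genes were correlated over the samples (Pearson r of 0.66 to 0.82 over 25 samples). Such correlation was not particular to the string: Lcn2, which lacks it, had r of 0.57 to 0.76 with the 4 genes. All are from the plus strand of chromosome 5, with motif matches in capitals, at chr5:91320017-91320266, chr5:91332647-91332896, chr5:91214879-91215128 and chr5:91188075-91188324. A match is a description of the letters and not of a bound factor.
Cxcl1: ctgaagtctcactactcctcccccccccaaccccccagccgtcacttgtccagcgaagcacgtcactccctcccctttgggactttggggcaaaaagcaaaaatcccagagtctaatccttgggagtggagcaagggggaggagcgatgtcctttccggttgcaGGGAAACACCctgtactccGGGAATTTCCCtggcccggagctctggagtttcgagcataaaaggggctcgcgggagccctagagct
Cxcl2: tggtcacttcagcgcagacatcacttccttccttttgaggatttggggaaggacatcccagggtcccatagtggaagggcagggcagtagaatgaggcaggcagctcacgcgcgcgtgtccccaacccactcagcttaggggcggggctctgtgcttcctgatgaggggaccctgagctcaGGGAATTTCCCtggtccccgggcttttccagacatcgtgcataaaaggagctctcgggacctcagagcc
Cxcl3: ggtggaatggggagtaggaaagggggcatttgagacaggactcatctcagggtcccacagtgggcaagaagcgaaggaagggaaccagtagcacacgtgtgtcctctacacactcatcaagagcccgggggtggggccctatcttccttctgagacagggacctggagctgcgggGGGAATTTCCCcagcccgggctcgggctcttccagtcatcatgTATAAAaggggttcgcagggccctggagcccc
Cxcl5: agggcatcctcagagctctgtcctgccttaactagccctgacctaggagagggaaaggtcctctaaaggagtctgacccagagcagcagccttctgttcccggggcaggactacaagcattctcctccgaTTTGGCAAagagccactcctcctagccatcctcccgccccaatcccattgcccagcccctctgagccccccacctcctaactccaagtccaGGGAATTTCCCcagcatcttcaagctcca

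The promoter of Ppbp, the chemokine between Cxcl5 and Cxcl3, held no kB match in this window. It held TATAAA starting 30 bases before the annotated start and again 8 bases before it, and 1 AP-1 match. TATAAA lay before 4 of the 10 genes and before 8.34% of all promoters, the C/EBP motif before 3 of 10 and 9.16%, and the AP-1 motif before 1 of 10 and 6.0%. Lcn2 held a kB match and a C/EBP match, and S100a8 and Il1b held TATAAA starting 30 and 31 bases before their starts. Ppbp (chr5:91197294-91197543, plus strand) and Lcn2 (chr2:32243318-32243567, minus strand, printed in the direction of the gene) are shown because they had the largest estimates by grade:
Ppbp: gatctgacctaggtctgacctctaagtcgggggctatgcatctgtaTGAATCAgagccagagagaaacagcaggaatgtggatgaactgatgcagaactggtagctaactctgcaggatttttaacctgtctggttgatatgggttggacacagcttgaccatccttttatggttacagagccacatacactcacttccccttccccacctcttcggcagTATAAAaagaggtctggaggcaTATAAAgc
Lcn2: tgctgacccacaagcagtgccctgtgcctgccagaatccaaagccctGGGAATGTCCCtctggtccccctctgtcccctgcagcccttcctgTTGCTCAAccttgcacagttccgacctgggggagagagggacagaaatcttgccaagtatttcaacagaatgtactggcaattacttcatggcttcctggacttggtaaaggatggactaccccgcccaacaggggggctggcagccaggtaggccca

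Total expected counts of the 25 samples lay between 2667387 and 16534728 (median 9075416). RNA quality, given as the median transcript integrity number (TIN, higher is better), ran from 21.7 to 68.8 in high-grade, from 39.5 to 75.1 in mild and from 28.9 to 69.6 in normal samples. The 3 samples with the lowest TIN were the high-grade samples 42 (21.7) and 78 (23.7) and the normal sample 71 (28.9), and samples 42 and 71 had the highest S100a8 of their groups. The deposited description and grade of sample 7c (graded mild) and of sample SM1 (graded normal) disagree; the grade was used here. All 10 genes passed the gene filter, while Cxcl2 and Cxcl3 rested on a median of 7 and 6 counts per sample, and each was at 0 in 2 samples. Levels are CPM, read counts scaled to a common library size after TMM normalization. In these bulk samples a change in the number of cells of a type and a change in RNA per cell cannot be told apart.

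**Figure D1:**
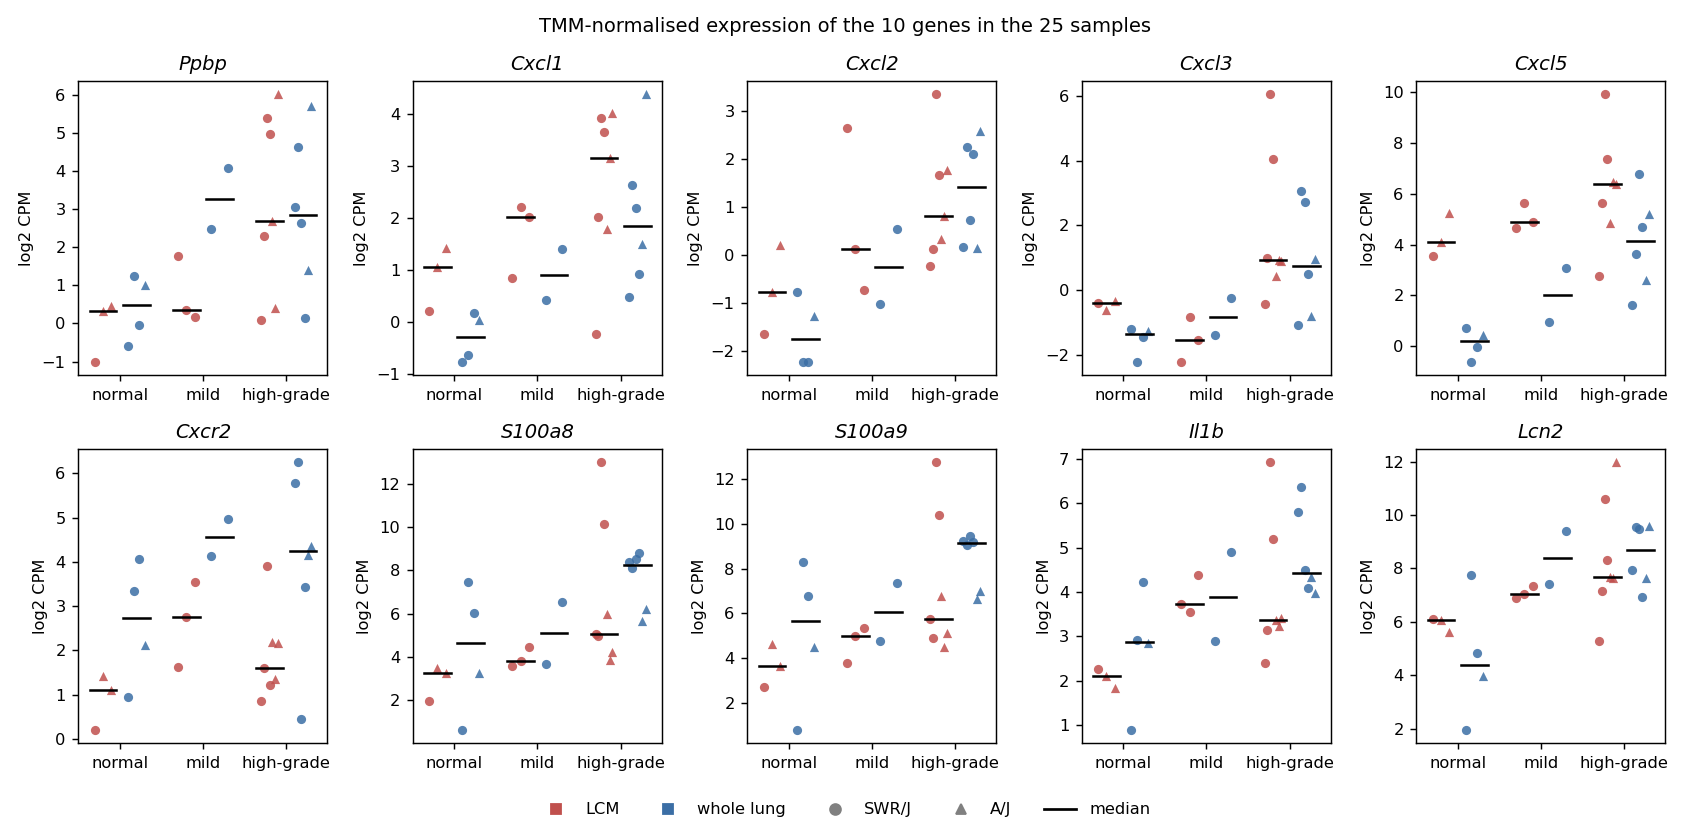
Level of each gene in the 25 samples that passed quality control, as log2 CPM (vertical axis, prior count 2) against the normal, mild dysplasia and high-grade groups. Red is LCM and blue is whole lung, circles are SWR/J and triangles A/J, and black bars are medians; in each group the median of Cxcl5 is lower in whole lung than in LCM, and that of Cxcr2 is higher.

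Cxcl1, the mouse chemokine also known as KC, was at 0.373 to 2.45 CPM in the normal samples (median 0.915). In mild dysplasia it was at 1.12, 1.58, 2.42, 3.81 and 4.39 CPM. In high-grade samples it ran from 0.644 to 20.5 CPM with a median of 4.32. On the log2 scale the mean of the normal samples was exceeded by all 5 mild samples and by 12 of 13 high-grade samples, and 10 of 13 high-grade samples exceeded the highest normal sample. The highest values belonged to the CIS (20.5 CPM), the SCC tumor (15.9 CPM) and the severe dysplasia sample 42 (14.9 CPM).

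Cxcl2, the close relative MIP-2, was low throughout, at 0 to 0.933 CPM in normal samples with a median of 0.203. The 5 mild samples had 0.281, 0.394, 0.878, 1.24 and 6.02 CPM, and the high-grade samples 0.644 to 9.88 CPM with a median of 1.55. Cxcl3 was at 0 to 0.583 CPM in normal samples (median 0.224) and at 0 to 0.622 CPM in mild dysplasia, where only 1 of 5 samples was above the highest normal sample. In high-grade samples it reached 0.261 to 65.9 CPM with a median of 1.69. The upper end was set by sample 42 (65.9 CPM), sample 45 (16.3 CPM), sample 76 (8.10 CPM) and sample 78 (6.34 CPM). All were SWR/J with moderate to severe or severe dysplasia. The other SWR/J high-grade samples (75, 40, 79 and 41) were at 0.261 to 1.77 CPM, and the 5 A/J high-grade samples at 0.358 to 1.75 CPM. Of 40 deposited values 28 were whole numbers for each of Cxcl2 and Cxcl3, against 40 for Cxcl1, so some of their reads were divided between genes and these low levels are uncertain.

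Cxcl5, the epithelial chemokine of the group, differed between sample types. Normal LCM samples had 11.3, 16.7 and 37.8 CPM and normal whole lung samples 0.433, 0.763, 1.15 and 1.42 CPM. High-grade LCM samples ran from 6.66 to 963 CPM (median 84.4) and high-grade whole lung samples from 2.88 to 111 CPM (median 18.6). Among normal samples the sample types did not overlap for Cxcl5, and neither did they for Cxcl1 and Cxcl3. The differences in mean log2 CPM, whole lung minus LCM, were -4.16, -1.18 and -1.09 in that order. These groups were of 3 and 4 samples, and the share of all genes without overlap was not counted. For Cxcl5 within whole lung each of the 6 high-grade samples was above each of the 4 normal samples, where 0.889% of all tested genes lay so. In LCM 5 of 7 high-grade samples were above the highest normal sample and 1 (sample 40) was below the lowest.

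Ppbp, the platelet basic protein gene, was at 0.281 to 2.17 CPM in normal samples (median 1.04). The 5 mild samples had 0.919, 1.05, 3.17, 5.33 and 16.6 CPM, the upper pair from whole lung. High-grade samples ran from 0.859 to 64.3 CPM with a median of 6.25. The highest were the SCC tumor (64.3 CPM, LCM) and the CIS (52.4 CPM, whole lung), and then severe sample 42 (41.5 CPM), sample 45 (31.0 CPM) and sample 76 (24.4 CPM). The other severe sample, whole lung sample 79, had 0.892 CPM, below the normal median, so the 2 severe samples lay far apart.

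Ppbp is best known as a platelet gene, so platelet markers are given beside it. Pf4, which encodes the platelet chemokine Cxcl4 and lies beside Ppbp, had a median of 13.7 CPM and a highest value of 44.4 CPM. The summed level of the 13 platelet and megakaryocyte markers was 23.4 to 92.1 CPM in normal whole lung, 28.5 to 45.5 CPM in normal LCM, 48.8 to 153 CPM in high-grade whole lung and 29.2 to 102 CPM in high-grade LCM. Gp6, a platelet collagen receptor, was at 0 in 15 of 25 samples, and Gp9 and Tubb1 at 0 in 7 and 9. In the fits none of the 7 tested markers passed for high-grade against normal (median log2 fold change 0.73 over the 7). At an unadjusted p under 0.05, 3 of the 7 were higher in high-grade and 0 lower, where 9.14% of all genes passed. In mild dysplasia 1 rose (Selp, a gene of platelets and endothelium), where 12.4% of all tested genes passed. In whole lung 4 of the 7 markers were higher, where 14.6% of all tested genes passed. Their part in the Ppbp values was not tested.

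Cxcr2, the receptor of these chemokines, was at 0.937 to 2.45 CPM in the 3 normal LCM samples and at 1.72 to 16.6 CPM in the 4 normal whole lung samples. High-grade LCM samples had 1.61 to 14.9 CPM (median 2.82) and high-grade whole lung samples 1.15 to 76.0 CPM (median 19.0). The highest were whole lung samples 76 (76.0 CPM) and 75 (54.7 CPM), and 4 of 13 high-grade samples exceeded the highest normal sample. The mild samples had 2.85, 6.50, 11.4, 17.4 and 31.1 CPM, the upper pair again from whole lung. Cxcr1, the gene of the sister receptor, did not pass the gene filter and was at 0 in 5 samples.

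S100a8 covered 1.34 to 175 CPM in normal samples (median 9.39), 11.7 to 92.3 CPM in mild dysplasia and 14.3 to 8078 CPM in high-grade samples (median 74.2). S100a9 followed it at 1.49 to 316 CPM (median 22.3), 13.6 to 165 CPM and 21.9 to 6925 CPM (median 129). Sample 42, severe dysplasia taken by LCM, had 8078 CPM of S100a8 and 6925 CPM of S100a9, and sample 45, moderate to severe dysplasia taken by LCM, had 1125 and 1358 CPM. The other 5 high-grade LCM samples had 14.3 to 63.8 CPM of S100a8. Among high-grade whole lung samples the 4 SWR/J samples lay at 273 to 451 CPM and the 2 A/J samples at 49.7 and 74.2 CPM. The highest normal sample was whole lung sample 71, with 175 CPM of S100a8 and 316 CPM of S100a9; its TIN of 28.9 was the lowest of the normal samples. In the SCC tumor calprotectin was low for a high-grade sample, at 18.6 and 34.6 CPM, though above the normal medians of 9.39 and 22.3 CPM. The same tumor had the highest Lcn2 and Ppbp of the 25 samples.

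Per length of exon, S100a8 was at 0.558 to 1.02 times S100a9 in the 11 whole lung samples with at least 20 counts of both (median 0.738) and at 0.589 to 1.55 times in the 13 LCM samples (median 0.845). The LCM samples above 1 were 42 (1.55), 41 (1.44), 5 (1.15), 45 (1.10) and SM1 (1.02), and the whole lung sample above 1 was 79 (1.02). Sample 25, a severe LCM sample that failed quality control, had a ratio of 1.73 on 4520 counts of S100a8 and 3477 of S100a9. The failed LCM samples 50 (CIS) and 20 (moderate to severe) had 1.73 and 1.02, and the failed whole lung sample 80 (severe) 0.705. Among passed LCM samples the moderate to severe samples 40, 47 and 48 had 0.845, 0.777 and 0.870, and the SCC tumor 0.713.

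**Figure D2:**
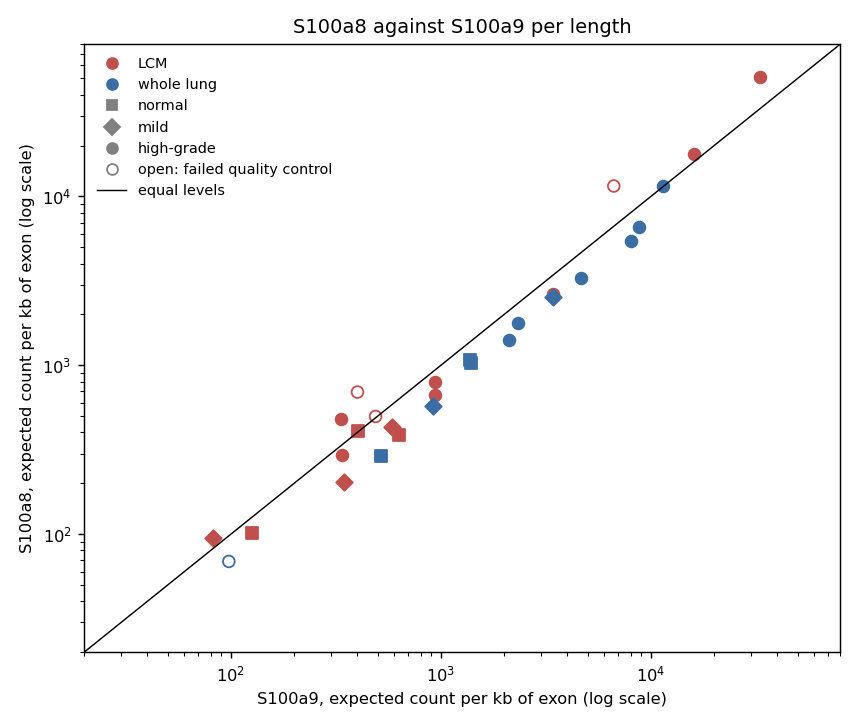
Expected counts per kb of exon of S100a8 (vertical) against S100a9 (horizontal) on log scales, in the samples with at least 20 counts of both; red is LCM, blue is whole lung, squares are normal, diamonds mild and circles high-grade, open symbols failed quality control, and the line marks equal levels. Most samples lie below the line, and LCM sample 42 at the upper right lies above it with a ratio of 1.55.

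Il1b, the interleukin 1 beta gene, was at 3.38, 4.09 and 4.59 CPM in normal LCM samples and at 1.64 to 18.6 CPM in normal whole lung samples. High-grade LCM samples had 5.05 to 121 CPM, each above each normal LCM sample, and high-grade whole lung samples 15.6 to 81.9 CPM. The highest values were in sample 42 (121 CPM), sample 76 (81.9 CPM) and sample 75 (55.4 CPM), which also had the highest S100a8 (sample 42) and the highest Cxcr2 (samples 76 and 75). Lcn2, the lipocalin 2 gene, was at 3.66 to 214 CPM in normal samples (median 48.9), at 119, 131, 163, 170 and 672 CPM in mild dysplasia and at 38.5 to 4012 CPM in high-grade samples (median 246). The SCC tumor had 4012 CPM, sample 42 had 1549 CPM and the CIS had 778 CPM. Only 21 of the 40 Lcn2 values were whole numbers, so for part of its reads the source was estimated rather than counted.

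Levels can be compared between genes per kb of exon. In high-grade LCM samples the medians were 101 CPM per kb for S100a9, 87.8 for Lcn2, 85.2 for S100a8 and 51.0 for Cxcl5, whose ranges over the 7 samples overlap. The other 6 genes had medians of 0.846 to 9.13 CPM per kb, with Cxcl1 highest and Cxcl2 lowest. In high-grade whole lung samples S100a9 (1079 CPM per kb) and S100a8 (779) led, Lcn2 had 206 and Cxcl5 11.3, and the remaining 6 lay between 1.46 and 11.2. Between the sample types the median of Cxcr2 moved from 0.928 in LCM to 6.24 CPM per kb in whole lung, while Cxcl1 moved from 9.13 to 3.63.

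In the fit across 15630 genes adjusted for sample type, strain and median TIN (edgeR quasi-likelihood test, Benjamini-Hochberg adjustment), 0 of the 10 genes passed an adjusted p of 0.05 for high-grade against normal, where 0.0192% of all tested genes passed. The estimates were above 0 for 10 of 10, with a median log2 fold change of 2.29 against -0.01 over all genes. At an unadjusted p under 0.05 the count was 9 of 10 (S100a8 excepted), where 9.14% of all genes passed. Ppbp had the largest estimate, 4.31 ± 1.04 (SE) with an adjusted p of 0.262, followed by Lcn2 with 3.22 ± 0.95 and an adjusted p of 0.324. The chemokines Cxcl1, Cxcl3, Cxcl2 and Cxcl5 were at 2.52 ± 0.63, 2.51 ± 0.92, 2.41 ± 0.71 and 2.07 ± 0.78. The calprotectin genes were at 2.17 ± 1.07 and 2.10 ± 1.0, Il1b at 1.74 ± 0.60 and Cxcr2 at 1.61 ± 0.65. With DESeq2 3 of the 10 passed (Ppbp, Cxcl1 and Lcn2), where 0.582% of all tested genes passed. The labels do not tie samples to animals, so these p-values measure only the spread between these samples.

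**Figure D3:**
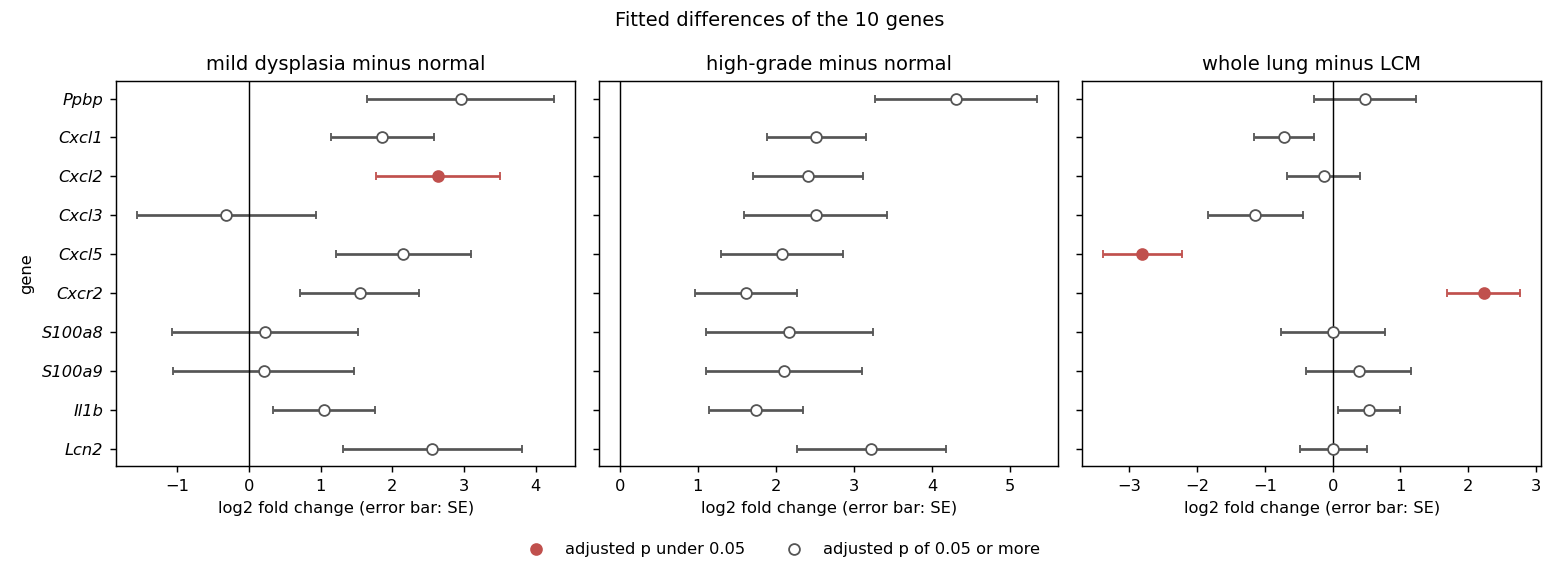
Fitted log2 fold changes (horizontal axes) of the 10 genes with standard errors, for mild dysplasia minus normal, high-grade minus normal and whole lung minus LCM; filled red points passed an adjusted p of 0.05 over all genes. The high-grade estimates are above 0 for all 10 genes with none filled, and Cxcl5 and Cxcr2 are filled on opposite sides of 0 for sample type.

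Mild dysplasia was compared with the same 7 normal samples. Here 1 of 10 genes passed, where 12.4% of all tested genes passed: Cxcl2, with a log2 fold change of 2.64 ± 0.86 (edgeR adjusted p = 0.0483). Its call rested on low counts, and Cxcl2 was not tested under the filter at a prior count of 0.25. The call held in 8 of 25 fits that left out 1 sample, with estimates of 1.86 to 3.11. The highest adjusted p, 0.199, came without sample 5, the mild sample with 6.02 CPM. Ppbp (2.96 ± 1.30), Lcn2 (2.56 ± 1.24), Cxcl5 (2.15 ± 0.95) and Cxcl1 (1.86 ± 0.72) had adjusted p of 0.0814 to 0.156, beside 4.31, 3.22, 2.07 and 2.52 in the high-grade comparison. S100a8 (0.22 ± 1.30), S100a9 (0.21 ± 1.26) and Cxcl3 (-0.31 ± 1.25) lay near 0 with wide errors, beside 2.17, 2.10 and 2.51 in the high-grade comparison. Whether the mild and the high-grade differences differ from each other was not tested.

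With grade scored in steps, 0 for normal up to 4 for CIS or SCC, 3 of the 10 genes passed, where 0.262% of all tested genes passed. Ppbp rose by 1.49 ± 0.27 log2 units per step (edgeR adjusted p = 0.0221), Lcn2 by 1.30 ± 0.25 (0.0270) and Cxcl1 by 0.95 ± 0.18 (0.0270). The other 7 had estimates of 0.57 to 0.87 per step with adjusted p of 0.0955 to 0.369, Cxcl2 nearest. The top rank holds only the CIS and the SCC tumor, both from A/J mice. The count fell to 0 without the SCC tumor, without the CIS, or without either of the A/J normal samples 46 and 81. Without sample 42 it was 2, since Lcn2 then had an adjusted p of 0.0516. Within LCM, whole lung or SWR/J samples alone the slopes of the 10 genes were above 0 and none passed, with adjusted p of at least 0.336.

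Within each sample type the mean of the high-grade samples was above that of the normal samples for 10 of 10 genes, and none passed in either. In LCM the differences in mean log2 CPM ran from 1.0 (Cxcr2) to 3.83 (S100a8), and in whole lung from 1.45 (Cxcr2) to 3.96 (Cxcl5). High-grade and normal samples did not overlap for 2 genes in LCM (S100a8 and Il1b), where 2.21% of all tested genes lay wholly above normal, and for 4 genes in whole lung (Cxcl1, Cxcl2, Cxcl3 and Cxcl5), where 0.889% did. The groups here are of 3 and 7 and of 4 and 6 samples. In the fits 0 of the 10 genes had a difference between sample types in the high-grade effect, where 0% of all tested genes did by edgeR (2 genes by DESeq2). At an unadjusted p under 0.05 the count was again 0 of 10, where 7.15% of all genes passed. The largest interaction estimates were -2.43 ± 1.41 for Ppbp and -2.39 ± 1.55 for S100a8, both smaller in whole lung, and with these errors smaller differences were not detectable.

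Sample type differed in opposite directions for the receptor and the ligand Cxcl5. Of the 10 genes 2 passed, where 14.6% of all tested genes passed: Cxcr2 was higher in whole lung by 2.23 ± 0.54 log2 units (edgeR adjusted p = 0.0105), and Cxcl5 was lower by 2.81 ± 0.58 (log2 fold change -2.81, adjusted p = 0.00488). Both passed in each of 25 fits that left out 1 sample. In SWR/J samples alone neither passed (adjusted p of 0.118 and 0.0542) with estimates of 2.56 and -2.49. Of the 12 whole lung samples 7 were above the highest LCM sample for Cxcr2, and 7 were below the lowest LCM sample for Cxcl5. The other 8 genes had estimates of -1.14 (Cxcl3) to 0.54 (Il1b) with adjusted p of at least 0.283, and those of S100a8 (0.00 ± 0.77) and Lcn2 (0.01 ± 0.49) were near 0.

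Markers of other cells were counted by sample type too, where 14.6% of all tested genes passed. Whole lung was higher for 5 of 6 tested erythroid genes, 4 of 8 alveolar type 2 genes and 3 of 10 macrophage and monocyte genes. It was lower for 2 of 5 club cell, 1 of 6 basal cell and 1 of 5 ciliated cell genes. Of 11 airway antimicrobial genes 4 were lower in whole lung, among them Reg3g (-4.53) and Pigr (-2.05). The summed erythroid level was 319 to 6303 CPM in LCM and 1686 to 82904 CPM in whole lung. The summed alveolar type 2 level was 407 to 10810 CPM in LCM and 191 to 33644 CPM in whole lung. In the neutrophil list Itgb2 was higher and Ltf lower in whole lung, and 15 of 20 genes were tested. The part of any of these cells in the Cxcr2 and Cxcl5 differences was not tested.

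Between strains 0 of the 10 genes passed, where 0.992% of all tested genes passed. The largest estimates were for Cxcl5, 2.02 ± 0.96 higher in A/J (adjusted p = 0.281 by edgeR), and for Cxcl2, 1.78 ± 0.87. S100a8 and S100a9 were at -1.40 ± 1.32 and -1.19 ± 1.26. RNA quality differed with strain: the A/J samples had a TIN of 53.7 to 69.6 and the SWR/J samples one of 21.7 to 75.1. In the fit without TIN S100a8 (-4.11, edgeR adjusted p = 0.0171) and S100a9 (-3.55, adjusted p = 0.0235) were lower in A/J, where 16% of all tested genes passed, and Cxcl5 was at -0.61. In LCM samples alone S100a8 and S100a9 were at 1.69 and 1.58, the opposite direction. Among high-grade samples the 5 A/J samples had 14.3 to 74.2 CPM of S100a8 and the 8 SWR/J samples 31.4 to 8078 CPM, with 2 of 5 A/J samples below each SWR/J sample. The part of RNA quality in the strain difference was examined only through this covariate.

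Neutrophil markers were counted beside these 10 genes. Of 15 tested markers outside the 10, 0 passed for high-grade against normal (median log2 fold change 1.11), and 12 estimates were above 0. At an unadjusted p under 0.05, 7 of the 15 were higher in high-grade and 0 lower, where 9.14% of all genes passed. In mild dysplasia 1 of the 15 rose and 1 fell, where 12.4% of all tested genes passed. The one that rose was Cd177, a neutrophil surface gene (2.68 ± 0.71, edgeR adjusted p = 0.0257). Without adjustment, 2 of the 15 rose and 2 fell in mild dysplasia at a p under 0.05. The share of all genes at that p is not given here and is at least the 12.4% that passed after adjustment. Itgam, which encodes the integrin alpha M chain, was nearest to passing on the rank of grade (0.71 ± 0.16 per step, adjusted p = 0.0514). The granule genes of neutrophil precursors were near the floor: Elane was at 0 in 19 of 25 samples, Mpo in 8, and the surface marker Ly6g in 14. Ltf, which airway glands also make, reached 44376 CPM. Without it the other 19 markers summed to 114 to 243 CPM in normal LCM and 89.8 to 736 CPM in high-grade LCM, and to 153 to 600 CPM in normal whole lung and 199 to 710 CPM in high-grade whole lung. These ranges overlap.

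The wider pathway was counted in the same fits. Of 18 tested genes of interleukin 1 and interleukin 17 signalling, 0 passed for high-grade against normal or for rank. In mild dysplasia 1 of the 18 rose and 2 fell, where 12.4% of all tested genes passed. Il1r1, the interleukin 1 receptor, rose (1.14 ± 0.34). The inflammasome adaptor Pycard and the receptor Il17ra fell by 2.08 and 1.48 on the log2 scale. Csf3, which encodes the neutrophil growth factor G-CSF, was at 1.48 ± 0.34 per step of grade (adjusted p = 0.0553). Of 12 tested NF-kB and interleukin 17 target genes, 0 passed for high-grade or rank. In mild dysplasia 1 of the 12 passed, again beside 12.4% of all tested genes: Nfkbia, the feedback inhibitor of NF-kB, fell by 0.92. Of 13 tested S100 genes other than the calprotectin pair, 0 passed for high-grade, mild dysplasia or rank. In whole lung, where 14.6% of all tested genes passed, S100a11 and S100a3 were lower. Of 6 tested genes of the other chemokine axis, 0 passed for grade, and Cxcl12 was higher in whole lung by 1.02 ± 0.31.

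The 10 genes differed in how closely they tracked each other. S100a8 and S100a9 had a Pearson r of 0.99 over the 25 samples and within each sample type. Among Cxcl1, Cxcl2, Cxcl3 and Cxcl5, the 4 genes with the shared string, r was 0.66 to 0.82 over all samples, 0.56 to 0.89 within LCM and 0.76 to 0.86 within whole lung. Genes without the string overlapped this range: over all samples Ppbp had 0.44 to 0.72 with the 4 genes, and Lcn2 0.57 to 0.76. Ppbp tracked Lcn2 (0.82 over all samples, 0.87 within LCM and 0.82 within whole lung) more closely than any of the other 8 genes. Il1b tracked S100a8 (0.84) and Cxcr2 (0.66), while Cxcr2 and Cxcl5 had -0.24 over all samples, 0.59 within LCM and -0.08 within whole lung. Without sample 42 the r of Cxcl5 and S100a8 went from 0.40 to 0.18, and that of S100a8 and S100a9 was again 0.99. These are descriptions over samples that share grade, strain and RNA quality, and no test was made.

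**Figure D4:**
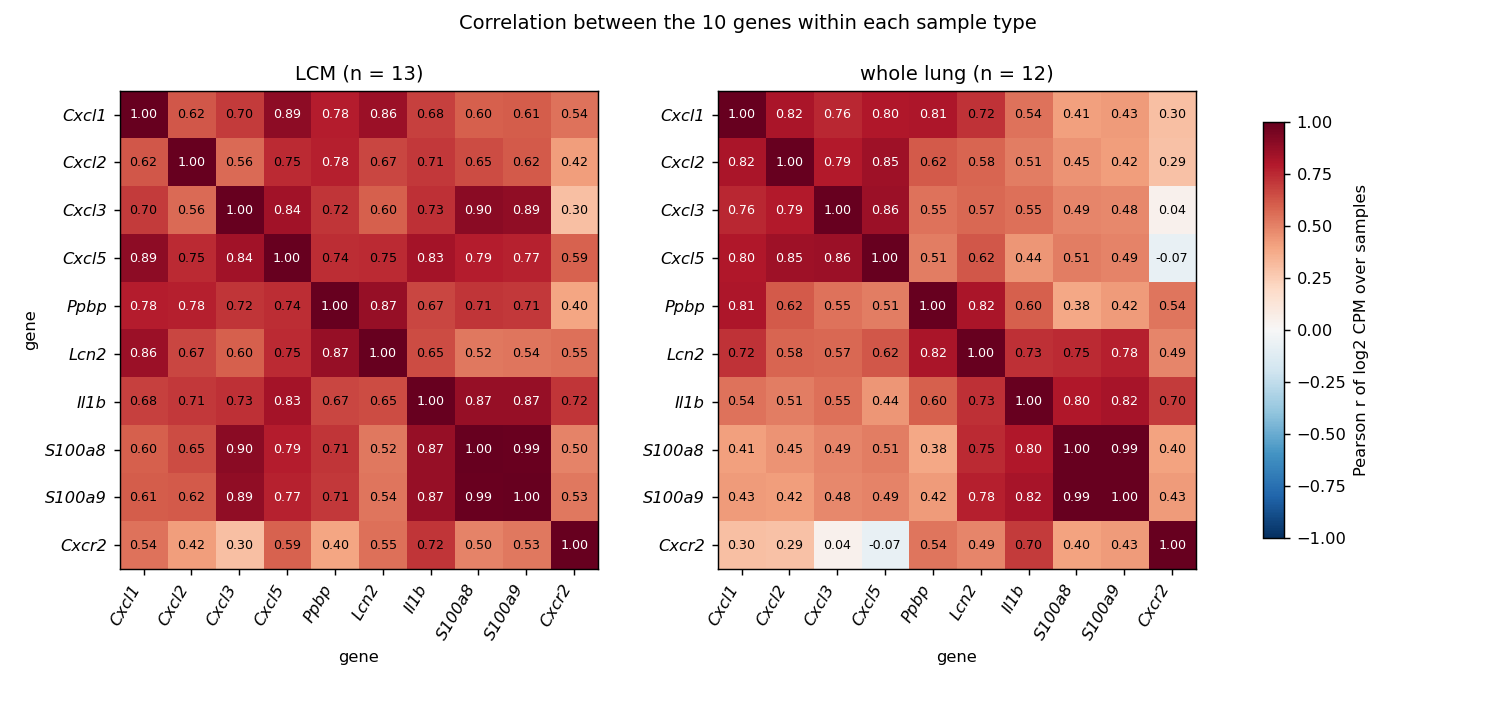
Pearson r of log2 CPM between each pair of the 10 genes (rows and columns), within 13 LCM samples (left) and 12 whole lung samples (right), from -1 in blue to 1 in red. S100a8 and S100a9 stand at 0.99 in both, and the lowest value in each belongs to a pair with Cxcr2.

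Among the 14202 other genes whose mean log2 CPM reached 1, the following were among the closest to each of the 10 over the 25 samples. The nearest to Cxcr2 were Csf3r, the receptor of G-CSF (r = 0.91), Cd300lf (0.87) and Nfam1 (0.86). The nearest to Il1b were Clec4d (0.89), Alox5ap (0.83) and Ccr1 (0.80), and to S100a8 Gm11428 (0.88), Il1rn (0.84) and Prr13 (0.84). S100a9 shared Gm11428 (0.85), beside Retnlg (0.85), a neutrophil resistin-like gene, and Pfkfb4 (0.83). Cxcl5 was nearest to Cd14 (0.88), Sectm1b (0.87) and Itln1 (0.87), and Cxcl1 to Cyp7b1 (0.89), Cebpd (0.89) and Timp1 (0.85). Cxcl2 also had Timp1 (0.83), beside Slc39a14 (0.80) and Pdlim7 (0.80). Cxcl3 was nearest to Tnip3 (0.81) and Krt16 (0.73), Lcn2 to Rnf149 (0.84), Litaf (0.84) and Adora2b (0.83), and Ppbp to Coro1c (0.83), Gda (0.80) and Gm7334 (0.79).

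The 15 samples that failed quality control were not among the columns on which the genes were selected, but they are shallow: their expected counts summed to 17051 to 1965373. In the 3 normal samples, all LCM from SWR/J, Ppbp, Cxcl1, Cxcl2, Cxcl3 and Cxcr2 had 0 counts, and a count of 0 allows up to 1.86 CPM in sample 2, 17.3 CPM in sample 1 and 168 CPM in sample 3 (3 counts of the total). Lcn2 had 46, 166 and 14 counts there. Of the 10 high-grade samples, severe LCM sample 25 had 4520 counts of S100a8 in a total of 858375 (5266 CPM) and moderate to severe LCM sample 20 had 195 (793 CPM), with 90 counts of Ppbp (366 CPM) and 215 of Cxcl5 (874 CPM). Another severe LCM sample, 43, had 7 counts of S100a8 (24.4 CPM), so severe LCM samples ran from 24.4 to 8078 CPM over passed and failed samples.

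High-grade was compared with normal in these failed samples with a two-sided exact permutation test of the mean log2 CPM for each of the 10 genes, whose smallest possible p is 0.00699. The 3 normal samples are LCM from SWR/J, while the 10 high-grade samples include 3 of whole lung and 2 from A/J, and the test has no term for either. The p-values are not adjusted for the 10 tests. S100a8 was 3.28 log2 units higher in high-grade (p = 0.0490, 4 of 10 samples above the highest normal sample) and S100a9 3.21 higher (p = 0.105, 6 of 10). The S100a8 value did not hold with the 2 normal and 8 high-grade samples of at least 100000 counts (p = 0.267), nor with medians in place of means (p = 0.0769), nor without normal sample 2 or normal sample 3 (p = 0.212 for each). Without normal sample 1 it held, at 4.50 higher (exact p = 0.0303, 10 of 10 above the highest of the 2 remaining normal samples). Against the 6 high-grade LCM samples from SWR/J alone, a subset chosen after seeing the data, S100a8 was 3.91 higher (exact p = 0.0952), and Cxcl5 was at 0.69 (exact p = 0.714). Ppbp was at 1.24 (p = 0.245, 6 of 10 above the highest normal), Cxcl1 at 1.03 (p = 0.392) and Cxcl5 at 0.10 (p = 0.951). Lcn2 was lower in the high-grade samples, by 1.63 log2 units (difference -1.63, p = 0.343), the only 1 of the 10 with that direction. With 3 normal samples at this depth, no difference in the chemokines was detected. How large a difference could have been detected was not examined.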

How the data were processed

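RNA from 40 mouse samples was sequenced from TruSeq libraries, a kit that does not mark strand, and 25 samples passed the quality control of the authors. Per the labels the reads were trimmed with Trimmomatic, aligned with STAR to mm9 and summarised per gene with RSEM, and the authors deposited expected counts, which need not be whole. These were rounded to whole numbers and fitted with edgeR 4.0.16 (robust quasi-likelihood, TMM) in R 4.3.3, adjusted for sample type, strain and median TIN, over genes with an interquartile range above 0 and a sum above 1 of log2 CPM (prior count 2, 15630 genes). A gene passed at a Benjamini-Hochberg adjusted p of 0.05, and the SE was derived from the fold change and its F statistic. DESeq2 1.42.0, other filters and subsets were alternatives. Every one of the 10 genes was named, with its 3 nearest genes by Pearson r. Per list and comparison at most the 3 passing genes with the smallest p were named, and single genes where a result turns on them. Some genes under this rule are not reported here. Itgam and Csf3 were picked after their values were seen. The members and lists were chosen with earlier results of these data known. Totals were 2667387 to 16534728 in passed samples, and floors cover counting error only. The fitting code was tested on simulated data. Promoter windows were read from the NCBIM37 genome and annotation. Groups follow the deposited grade.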

Additional observations from a re-analysis of the deposited data

Results flagged for a closer look

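In mild dysplasia, Lcn2 in whole lung sample 74 stood apart from the other 4 samples, at 9.39 log2 CPM with the nearest other sample at 7.41, a gap of 0.794 of the group's range over 5 samples. In all, 50 groups were examined for such a sample and 1 was found, while chance marks about 1 in 20. The same sample had the highest Ppbp, S100a8, S100a9, Il1b and Cxcr2 of the mild group.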

How the results depend on the processing

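Counts of the 10 genes past the threshold went from 0 to 3 with DESeq2 for high-grade against normal; from 1 to 4 with DESeq2, and to 0 with no gene filter, the filter at a prior count of 0.25, no TIN, samples 42 and 72 left out, LCM alone or whole lung alone, for mild dysplasia; from 2 to 0 in SWR/J alone for sample type; from 0 to 2 without TIN for strain; and from 3 to 6 with DESeq2 or without TIN, and to 0 in LCM, whole lung or SWR/J alone, for the rank of grade. Without sample 42, chosen after seeing the data, the rank count was 2 of the 10 and 28 over all genes. In the failed samples the count of 1 went to 0 with at least 100000 counts, with medians, or in LCM samples of SWR/J alone (chosen after seeing the data). Over all genes, high-grade calls went from 3 to 91 (DESeq2), 1 (no filter), 5 (no TIN) and 0 (LCM, whole lung or SWR/J alone). Mild calls went from 1945 to 3653 (DESeq2), 997 (without samples whose description and grade disagree), 928 (without 42 and 72) and 0 (LCM or whole lung alone). Sample type calls went from 2279 to 1298 (without disagreeing samples) and 577 (SWR/J alone). Strain calls went from 155 to 961 (DESeq2), 254 (no filter), 2493 (no TIN), 11 (LCM alone) and 14 (whole lung alone). Rank calls went from 41 to 538 (DESeq2), 63 (no filter), 182 (no TIN) and 0 (LCM, whole lung or SWR/J alone). Interaction calls went from 0 to 2 (DESeq2). The subsets hold fewer samples. Under the filter at a prior count of 0.25 Cxcl2 and Cxcl3 were not tested, and Cxcl2 was the mild call. Otherwise the cause was not tested. With 1 sample left out, calls over all genes were 0 to 6 for high-grade, 643 to 3118 for mild, 1385 to 2555 for sample type, 97 to 402 for strain, 1 to 153 for rank and 0 to 0 for the interaction. Among the 10 genes they were 0 to 0, 0 to 1, 2 to 2, 0 to 0, 0 to 4 and 0 to 0 in that order, and 0 to 1 in the failed samples. Of the single-gene values under alternatives, 1939 kept direction and side of the threshold, 50 fell short of it, 15 newly passed and 94 changed sign, none of which had passed in the reported fit or passed under the alternative. The values that changed sign are log2 fold changes. For strain, Cxcl3 went from -0.43 to 2.12 (LCM alone), Cxcl5 from 2.02 to -0.61 (without TIN), Cxcr2 from -0.67 to 1.502 (LCM alone), Il1b from -0.81 to 0.81 (LCM alone), S100a8 from -1.40 to 1.69 (LCM alone) and S100a9 from -1.19 to 1.58 (LCM alone). With 1 sample left out the range for strain was -1.01 to 0.35 for Cxcl3. For the interaction, Cxcl1 went from 0.15 to -0.021 (without disagreeing samples), -0.44 (SWR/J alone), Cxcl3 from -0.94 to 0.0007 (without samples 42 and 72), 0.15 (without sample 42), Cxcl5 from 0.37 to -0.54 (SWR/J alone) and Il1b from -0.10 to 1.02 (without samples 42 and 72), 0.78 (without sample 42). With 1 sample left out the range for the interaction was -0.34 to 0.63 for Cxcl1, -2.26 to 0.15 for Cxcl3, -0.22 to 1.44 for Cxcl5, -0.54 to 0.78 for Il1b and -2.16 to 0.068 for Lcn2. For mild dysplasia, Cxcl3 went from -0.31 to 0.19 (without disagreeing samples), 0.98 (whole lung alone), 0.46 (SWR/J alone), S100a8 from 0.22 to -1.75 (without TIN), -0.01 (without samples 42 and 72), -0.34 (LCM alone), -0.46 (without sample 42) and S100a9 from 0.21 to -1.53 (without TIN), -0.12 (LCM alone), -0.31 (without sample 42). With 1 sample left out the range for mild dysplasia was -1.40 to 0.29 for Cxcl3, -1.17 to 1.83 for S100a8 and -0.95 to 1.41 for S100a9. For sample type, Cxcl2 went from -0.13 to 0.024 (without samples 42 and 72), 0.49 (SWR/J alone), Lcn2 from 0.0076 to -0.042 (DESeq2), -0.042 (RLE size factors), -0.0201 (the 0.25 filter), -0.0013 (without TIN), -0.14 (without disagreeing samples), S100a8 from 0.0038 to -0.027 (DESeq2), -0.027 (RLE size factors), -0.021 (the 0.25 filter), -0.48 (without TIN), -0.075 (without disagreeing samples) and S100a9 from 0.39 to -0.0072 (without TIN). With 1 sample left out the range for sample type was -0.41 to 0.077 for Cxcl2, -0.61 to 0.50 for Lcn2 and -0.35 to 0.63 for S100a8. No paired analysis was possible because the replicate numbers were given in accession order and name no shared animal. Cxcl2 and Cxcl3 rest on few counts.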
